A study of Mus musculus with 4 samples.

Results

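Alternative activation is the state that macrophages take on under interleukin-4 (IL-4) or IL-13, and the genes described here are 10 genes that mark or carry it. They were chosen by name as receptors (*Il4ra*, *Il13ra1*), signal relays (*Stat6*, *Irf4*) and target or marker genes (*Retnla*, *Arg1*, *Clec10a*, *Mgl2*, *Pdcd1lg2*, *Ear2*). Of the 10 genes, 9 were among the 18364 genes of the expression table, and no row carried *Ear2* or one of its older names. The cells were large peritoneal macrophages (LPMs) from C57BL/6 mice, 8 weeks old, sorted as F4/80+ MHCII- CD102+ cells, and no cytokine was given to the mice per the labels. The labels name 2 libraries wild type (WT) and 2 libraries Rxra-/- (Rxra-KO). Retinoid X receptor alpha (RXRα), encoded by *Rxra*, is a nuclear receptor.

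Per the methods of the study, the deletion was made with a Cre recombinase driven from the LysM locus, which is active across myeloid cells, in mice with both *Rxra* alleles floxed (LysM Cre+ Rxra fl/fl), and the controls were Rxra fl/fl littermates without Cre. The floxed alleles are thus shared by both groups. Nothing states whether a library came from 1 mouse or from pooled mice, so p-values cannot be read as the spread between mice. They rest mostly on a spread shared across genes, and little on the 2 libraries per group of the gene itself. Depth was 652542 and 947372 reads in WT, against 629030 and 1047021 reads in Rxra-KO, for replicates 1 and 2. *Rxra* had 20 and 28 reads in WT, whereas the libraries labelled Rxra-KO had 33 and 77 (log2 change 0.99, limma adjusted *p* = 0.183, not called). The count per gene was thus not lower in Rxra-KO, and all directions below hold for the libraries as labelled. *Lyz2*, the LysM gene that carries Cre, had 9420 and 10684 reads in WT, against 4241 and 6272 in Rxra-KO (limma adjusted *p* = 0.00163, not called without either WT library). The count of *Rxra* reads does not separate the deleted part of *Rxra* from the rest of the transcript, so it cannot test the deletion.

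IL-4 binds a receptor made of IL-4Rα with either the common gamma chain or IL-13Rα1, while IL-13 uses the pair of IL-4Rα and IL-13Rα1. Janus kinases bound to these chains phosphorylate STAT6, which moves to the nucleus and induces, among others, *Arg1*, *Retnla*, the galactose-binding lectin genes *Clec10a* and *Mgl2*, and *Pdcd1lg2*. IRF4 acts downstream as a further transcription factor of this programme. In the peritoneal cavity, *Arg1* is also expressed by resident LPMs without added cytokine, whereas *Retnla* and *Irf4* are known from small peritoneal macrophages (SPMs), the monocyte-derived macrophages of the cavity.

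STAT6 binds palindromes of TTC and GAA held apart by 4 bases, so the 250 bases before the start site of the members were read from a table of RefSeq promoters (build GRCm38.p6), in which 8 of the 10 genes were matched. The promoters of *Arg1* and *Clec10a*, 2 of the 4 members called below, were not analysed here. A match in the 300-base window (250 bases before to 50 after the start) was found for *Retnla* and *Pdcd1lg2*, the 2 of 8 promoters that held it, against 6.95% of 32851 promoters. The pattern of TTC and GAA around any 4 bases is found alike on both strands, although the 4 bases themselves differ between strands. The first base of the match was at -145 from the start of *Retnla* and at -82 from that of *Pdcd1lg2*. The upstream stretches of these members, and that of *Irf4* for comparison as a called member without a match, are shown 5′ to 3′ with the match in capitals.
Retnla, chr16:48842359-48842608, + strand: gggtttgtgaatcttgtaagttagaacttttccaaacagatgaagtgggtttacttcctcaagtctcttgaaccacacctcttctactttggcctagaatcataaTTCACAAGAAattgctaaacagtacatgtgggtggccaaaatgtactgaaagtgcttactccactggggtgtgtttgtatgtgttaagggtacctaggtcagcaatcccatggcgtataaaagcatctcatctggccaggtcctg
Pdcd1lg2, chr19:29410669-29410918, + strand: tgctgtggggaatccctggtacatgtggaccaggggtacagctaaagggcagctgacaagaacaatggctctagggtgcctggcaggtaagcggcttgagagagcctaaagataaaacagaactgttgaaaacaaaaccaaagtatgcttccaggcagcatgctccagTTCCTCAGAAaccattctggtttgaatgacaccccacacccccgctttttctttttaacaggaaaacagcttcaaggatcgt
Irf4, chr13:30748983-30749232, + strand: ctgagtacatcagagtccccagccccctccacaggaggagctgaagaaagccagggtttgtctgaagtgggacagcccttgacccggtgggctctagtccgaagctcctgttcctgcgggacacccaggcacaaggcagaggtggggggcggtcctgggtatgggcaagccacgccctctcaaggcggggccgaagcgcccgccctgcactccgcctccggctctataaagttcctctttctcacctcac

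The same palindrome with a 3-base gap was in 0 of the 8 promoters and in 8.30% of all promoters. A direct repeat of AGGTCA with a 1-base gap, the element bound by RXR pairs, was in 0 of the 8 promoters and in 0.0396% of all promoters. This exact sequence is so rare that its absence from 8 promoters says nothing on RXR binding. A match is only a match of letters in this window.

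Of the 9 genes in the table, 4 were called in the comparison of Rxra-KO with WT libraries, against 2.29% of all 18364 genes tested and 4.60% of the 8850 genes with a mean of at least 10 reads. Called means that limma gave an adjusted p below 0.05 together with a log2 fold change (log2 change below, on the log2(value + 1) scale) of 0.6 or more in either direction. *Retnla*, *Clec10a* and *Irf4* were higher in Rxra-KO, as were 1.32% of all genes, and *Arg1* was lower, as were 0.969% of all genes. Both Rxra-KO libraries lay above both WT libraries for 4 members (18.8% of all genes) and below them for 1 member (19.3% of all genes). The median log2 change of the 9 genes was 1.03, and that of all genes was 0.02. The plot of all members by library shows these levels.

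**Figure D1:**
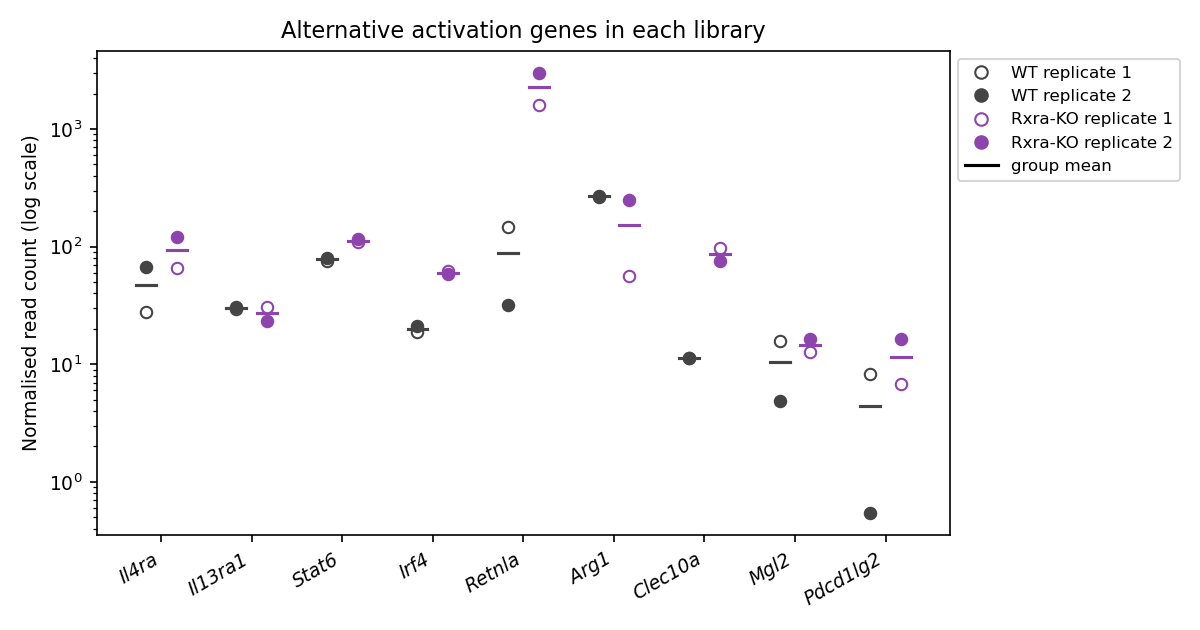
Normalised read count (log scale) of the 9 genes in each of the 4 libraries. Points are libraries (open, replicate 1; filled, replicate 2; grey, WT; purple, Rxra-KO) and lines are group means. *Retnla* reached 1589 and 3013 in Rxra-KO, and the Rxra-KO libraries were far apart for *Arg1* (56.5 and 248).

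*Il4ra* encodes IL-4Rα, the chain shared by the IL-4 and IL-13 receptors. Its normalised read count was 28.0 and 66.7 in WT, against 65.5 and 122 in Rxra-KO. The lower Rxra-KO library lay just under the higher WT library, so the groups overlapped, and in each group replicate 2 was the higher. The log2 change was 1.03 (95% confidence interval 0.37 to 1.68, limma) and did not pass the test (limma adjusted *p* = 0.0825). It was 1.64 without WT replicate 2, where it passed (limma adjusted *p* = 0.00557), and 0.42 without WT replicate 1. Its adjusted p ranged from 0.00557 to 0.846 over the alternatives.

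*Il13ra1*, the partner chain that binds IL-13, was at 29.5 and 30.9 in WT, against 30.9 and 23.3 in Rxra-KO. The groups overlapped and the log2 change was -0.16, with a 95% interval of -1.0 to 0.67 (limma adjusted *p* = 0.970).

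*Stat6*, the transcription factor that IL-4 receptors activate, had counts of 74.9 and 80.8 in WT, against 109 and 116 in Rxra-KO. Both Rxra-KO libraries lay above both WT libraries, and replicates were close to each other in either group. The log2 change of 0.52 (95% interval -0.05 to 1.10) did not pass the test (limma adjusted *p* = 0.566) and was under the fold threshold. Among the 7 STAT genes, all of them in the table, none was called, against 2.29% of all genes. *Stat6* was the only 1 of the 7 with both Rxra-KO libraries above both WT libraries, which held for 18.8% of all genes.

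*Irf4* had counts of 18.9 and 21.2 in WT, against 62.5 and 58.1 in Rxra-KO, from 12 and 19 reads and 41 and 58 reads. The groups were well apart and the replicates close, and the log2 change was 1.54 (standard error 0.39, limma adjusted *p* = 0.00756). The fold change varied little without any single library, between 1.47 and 1.62, but the call was lost without Rxra-KO replicate 1 (limma adjusted *p* = 0.315) or Rxra-KO replicate 2 (0.151), within a range of 0.00412 to 0.472 over the alternatives. Of the 9 IRF genes, *Irf4* was the only one called higher and *Irf1*, an interferon-induced family member, the only one called lower (log2 change -1.18, limma adjusted *p* = 0.00188, not called without WT replicate 2, at -0.50, or without Rxra-KO replicate 1, at -1.10).

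*Retnla* encodes RELMα (FIZZ1), a secreted resistin-like protein and one of the strongest IL-4 targets of mouse macrophages. It had counts of 146 and 32.0 in WT, against 1589 and 3013 in Rxra-KO, from 96 and 29 reads and 1055 and 3033 reads. Each Rxra-KO library was far above both WT libraries, although the libraries of a group also differed from each other. The log2 change was 4.97 (standard error 0.25, limma adjusted *p* = 1.36e-47), the fourth smallest p of all genes, and it lay between 3.90 and 6.05 when 1 library was left out. The standard error comes mostly from the spread shared across genes. With DESeq2 the adjusted *p* was 0.000473, and with limma fitted without a trend it was 0.356.

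Other resistin family members had few reads. *Retn* had 2 and 4 reads in WT, against 2 and 0 in Rxra-KO, and *Retnlg* had 0 and 2 reads against 7 and 2. *Retnlb* was not in the table. Of the 31-base words in the annotated *Retnla* transcript (GENCODE M21), 5.45% also occur in *Retnlg* and in no other gene.

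*Arg1* encodes arginase 1, which splits arginine into ornithine and urea, and it was the only member called lower. Its counts were 272 and 266 in WT, against 56.5 and 248 in Rxra-KO. The WT libraries were nearly equal, and only Rxra-KO replicate 1 was far below them. The log2 change was -1.18 (standard error 0.27, limma adjusted *p* = 0.00188). Without Rxra-KO replicate 1 it was -0.12 (limma adjusted *p* = 0.990), and without Rxra-KO replicate 2 it was -2.23. The call was also lost with edgeR (adjusted *p* = 0.0746), with DESeq2, and with genes under a value of 10 removed (limma adjusted *p* = 0.0848), while the adjusted p ranged from 4.49e-07 to 0.9998 over all alternatives. The lower level of *Arg1* therefore rested on 1 of the 2 Rxra-KO libraries.

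No other gene of arginine and polyamine metabolism was called, out of 9 in the table besides *Arg1*, against 2.29% of all genes. *Nos2*, whose product competes for arginine, had 1 to 3 reads in every library. *Arg2*, the mitochondrial arginase, had 12 and 22 reads in WT, against 4 and 35 in Rxra-KO, and *Slc7a2*, an arginine transporter that IL-4 induces, had 30 and 23 against 12 and 37. In both, as in *Arg1*, Rxra-KO replicate 1 was the lowest library.

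**Figure D2:**
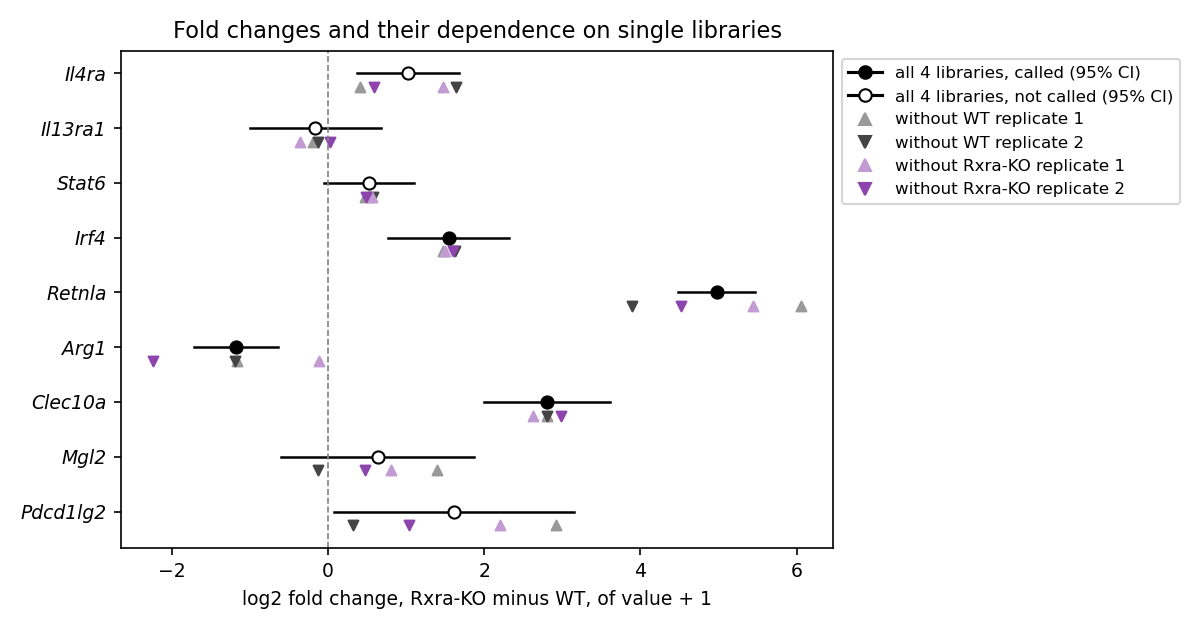
Log2 fold change of each gene of the Rxra-KO against the WT libraries on the log2(value + 1) scale, with its 95% confidence interval from limma (circles, filled where called), and the fold change without each library in turn (triangles). *Irf4* and *Clec10a* moved little, whereas *Arg1* went from -1.18 to -0.12 without Rxra-KO replicate 1.

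*Clec10a* (MGL1) and *Mgl2* encode closely related macrophage lectins that bind galactose and N-acetylgalactosamine, and IL-4 induces both. *Clec10a* had counts of 11.4 and 11.4 in WT, against 97.1 and 75.0 in Rxra-KO, from 7 and 10 reads and 64 and 75 reads. The groups were well apart, and the log2 change was 2.80 (standard error 0.41, limma adjusted *p* = 1.85e-08), or 2.62 to 2.99 without any single library. *Mgl2* had counts of 15.9 and 4.88 in WT, against 12.8 and 16.4 in Rxra-KO, from 10 and 4 reads and 8 and 16 reads. Its groups overlapped, and the log2 change was 0.64 (95% interval -0.60 to 1.87, limma adjusted *p* = 0.850). The ratio of the *Clec10a* count to the *Mgl2* count, not corrected for transcript length, was 0.714 and 2.33 in the WT libraries and 7.59 and 4.58 in the Rxra-KO libraries.

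The 2 lectin genes share sequence, which bears on how reads were divided between them. Of the 31-base words in the annotated transcripts of *Clec10a*, 13.7% also occur in *Mgl2*, and of those of *Mgl2*, 19.3% occur in *Clec10a*. A coding transcript of 912 bases for *Clec10a* and one of 996 bases for *Mgl2* had 820 identical bases of 906 aligned (90.5%), with a longest identical run of 183 bases. That run is shown with 20 bases on either side, 5′ to 3′, as bases 479 to 701 of the *Clec10a* and 527 to 749 of the *Mgl2* coding sequence (GENCODE M21 on GRCm38), with the 4 differing bases in capitals.
Clec10a: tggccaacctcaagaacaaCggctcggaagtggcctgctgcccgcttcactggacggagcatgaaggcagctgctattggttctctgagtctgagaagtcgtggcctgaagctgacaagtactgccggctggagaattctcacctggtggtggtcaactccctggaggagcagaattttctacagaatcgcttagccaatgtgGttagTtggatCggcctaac
Mgl2: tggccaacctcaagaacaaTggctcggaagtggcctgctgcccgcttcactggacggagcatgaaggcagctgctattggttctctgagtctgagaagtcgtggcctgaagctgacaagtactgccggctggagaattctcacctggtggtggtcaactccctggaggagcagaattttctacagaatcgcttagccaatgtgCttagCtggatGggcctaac

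A read that falls wholly inside the identical run cannot be given to 1 of the 2 genes by its own bases, so the separate levels of *Clec10a* and *Mgl2* are less certain than those of members with no shared words. The other members of the lectin family, *Asgr1* and *Asgr2*, which are best known from liver, had 1 to 3 and 1 to 10 reads per library and were not called.

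*Pdcd1lg2* encodes PD-L2, a ligand of the inhibitory receptor PD-1, and had 5 and 0 reads in WT, against 4 and 16 in Rxra-KO. The counts were 8.33 and 0.542 against 6.78 and 16.4, and the groups overlapped. At this depth no difference was detectable: the log2 change of 1.62 (limma adjusted *p* = 0.444) dropped to 0.32 without WT replicate 2, and was 2.91 when WT replicate 1 was left out. *Cd274*, which encodes the other PD-1 ligand PD-L1, had 25 and 27 reads in WT, against 19 and 26 in Rxra-KO (limma adjusted *p* = 0.931).

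*Ear2* belongs to the eosinophil-associated ribonucleases, a family of near-identical genes, and 60.5% of the 31-base words of its annotated transcript also occur in other genes, 40.2% in *Ear1*. *Ear1* and *Ear6*, the only genes of the Ear name in the table, had 0 to 3 and 1 to 7 reads per library and were not called. Of the 7 ribonuclease genes listed that were in the table, 1 was called. *Rnase4*, a more distant ribonuclease of the same superfamily, had 14 and 16 reads in WT, against 768 and 493 in Rxra-KO, a log2 change of 5.18 (standard error 0.28, limma adjusted *p* = 2.72e-44).

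**Figure D3:**
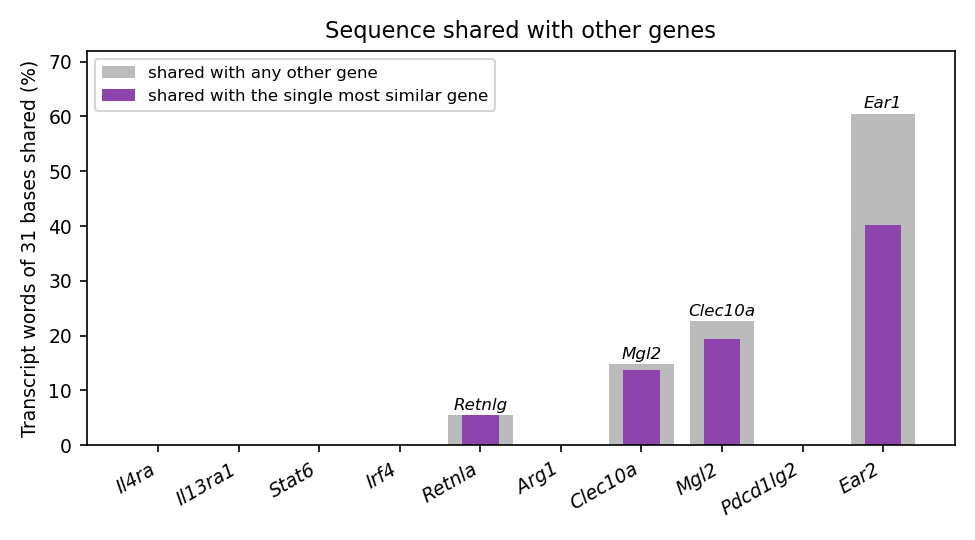
Percentage of the 31-base words in the annotated transcripts of each gene that also occur in transcripts of any other gene (grey) or of the gene that shares the most (purple, named above the bar). *Ear2* shared the most (60.5%), *Mgl2* and *Clec10a* shared 22.6% and 14.8%, *Retnla* shared 5.45%, and the other 6 genes shared none.

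The wider IL-4 and IL-13 pathway was examined with gene lists ordered by role. Of 6 ligands and upstream cytokines, *Il4* and *Il13* were not in the table. *Tslp*, an epithelial cytokine upstream of type 2 responses, had 0 and 1 reads in WT, against 73 and 65 in Rxra-KO, which is higher by at least 22.4-fold against a floor of 3 reads per library (limma adjusted *p* = 1.52e-13), and it was called without any single library. *Il5*, *Il25* and *Il33* had at most 6 reads in any library.

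None of the 8 receptor chains and kinases was called, against 2.29% of all genes. Their median log2 change was 0.56, or 0.24 with the gene at the floor in both groups set to 0. Both Rxra-KO libraries lay above both WT libraries for 4 of the 8 (18.8% of all genes) and below them for 0 (19.3% of all genes). *Jak1*, a kinase bound to IL-4Rα, had the highest mean count over the 4 libraries, though not within WT, with counts of 332 and 272 in WT, against 460 and 473 in Rxra-KO (log2 change 0.63, limma adjusted *p* = 0.164). None of the 5 feedback genes in the table was called either, and the most abundant of them, *Ptpn6*, a phosphatase that damps cytokine signals, had 448 and 861 reads in WT, against 394 and 836 in Rxra-KO. *Socs1* was not in the table.

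Of 13 genes of signal relay and transcription, 4 were called, all higher in Rxra-KO, and the median log2 change of the list was -0.25. Besides *Irf4* these were *Egr2*, *Klf4* and *Pparg*, transcription factors that act in alternative activation. *Egr2* had 25 and 10 reads in WT, against 165 and 58 in Rxra-KO, a log2 change of 2.46 (limma adjusted *p* = 4.74e-08), or 1.42 and not called without Rxra-KO replicate 1, and it was also not called with DESeq2 (adjusted *p* = 0.508, with a range of 5.58e-12 with edgeR to 0.508 over these tools). *Pparg*, a nuclear receptor that pairs with RXRs, had 1 and 0 reads in WT, against 24 and 6 in Rxra-KO, which is higher by at least 5.40-fold (limma adjusted *p* = 0.0164). The call was lost without WT replicate 2 or Rxra-KO replicate 1, and without the latter the bound was 1.53-fold. *Klf4* had 72 and 139 reads against 229 and 223, a log2 change of 1.10 (limma adjusted *p* = 0.00183), which was not called without WT replicate 1, at 0.87, or without Rxra-KO replicate 1, at 0.78.

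Of 26 further IL-4 targets in the table, 4 were higher, 3 were lower and 19 were not called, with a median log2 change of 0.23, and of 0.01 when genes at the floor took the value of their bound. The higher genes were *Mrc1*, the mannose receptor CD206, *Ccl24*, the chemokine eotaxin-2, *Fcgr2b*, the inhibitory IgG receptor, and *Trem2*, a lipid-sensing receptor. *Mrc1* had 63 and 25 reads in WT, against 671 and 744 in Rxra-KO (log2 change 4.04, limma adjusted *p* = 2.18e-34). *Ccl24* had 73 and 103 reads against 134 and 411 (log2 change 1.36, limma adjusted *p* = 4.45e-05), or 0.85 and not called without Rxra-KO replicate 2. *Fcgr2b* had 10 and 7 reads against 36 and 100, a log2 change of 2.60, and was not called without Rxra-KO replicate 2. *Trem2* had 2 and 3 reads against 23 and 24, which is higher by at least 7.50-fold, and was not called without either Rxra-KO library or with DESeq2.

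The lower genes of this list included *Alox15*, the 12/15-lipoxygenase, which IL-4 induces in macrophages and which resident peritoneal macrophages express. It had 322 and 440 reads in WT, against 120 and 138 in Rxra-KO, and its log2 change was -1.61 (limma adjusted *p* = 2.98e-08). *Plxdc2* and *Ptgs1*, the latter encoding cyclooxygenase 1, were the other 2, at -1.40 and -1.10 (limma adjusted *p* = 1.11e-07 and 0.00032). *Ptgs1* was not called without Rxra-KO replicate 1, at -0.67. *Chil3* (Ym1), another classical marker of alternative activation, had 4 and 1 reads in WT, against 5 and 5 in Rxra-KO, and *Chil4*, *Ccl17*, *Ccl8* and *Ch25h* were not in the table. Called genes of this list were thus found on both sides, where 1.32% of all genes were called higher and 0.969% lower. The log2 change of *Alox15* lay between -1.80 and -1.41 without any single library, whereas the lower level of *Arg1* rested on 1 Rxra-KO library. Why the targets differed in direction was not tested.

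For comparison, 18 genes of classical activation, the state driven by interferon-γ and bacterial products, had a median log2 change of 0.05. *Cd86*, a costimulatory ligand, was called higher (1.27, limma adjusted *p* = 0.0016), and *Marco*, a scavenger receptor, and *Irf1* were called lower (-2.41 and -1.18). The call of *Cd86* was lost without WT replicate 1, at 1.09, or Rxra-KO replicate 2, at 1.05. *Marco* averaged 1540 ± 235 in the WT libraries, against 303 ± 136 in the Rxra-KO libraries (SD, n = 2, limma adjusted *p* = 2.29e-19). *Tnf*, *Cxcl10* and *Ptgs2*, which are induced early in that state, had 0 to 2 reads in every library, and *Il1b* was not in the table.

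**Figure D4:**
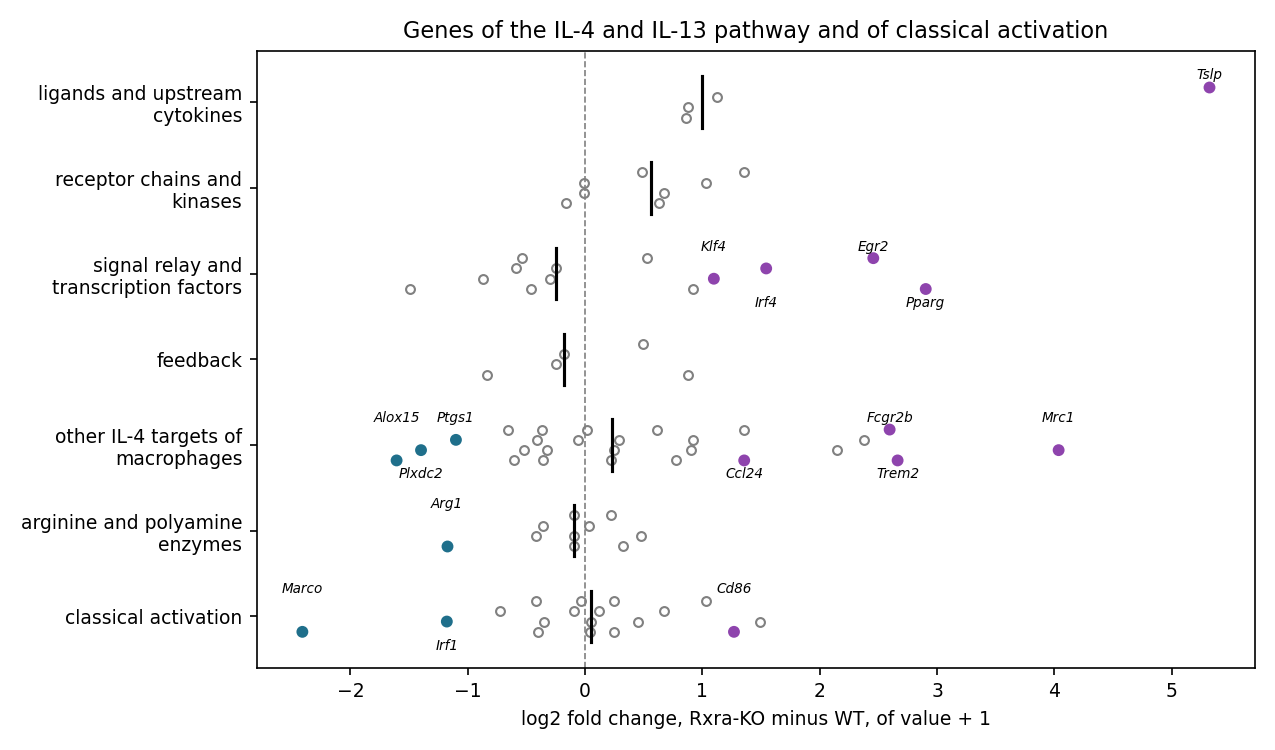
Log2 fold change (Rxra-KO against WT, log2(value + 1) scale) of each gene of 7 lists, 1 row per list. Filled points are called genes (purple higher, blue lower, named), open points are not called, and black lines are list medians. Calls stood on both sides among other IL-4 targets (4 higher, 3 lower), and *Tslp*, at the floor in WT, is drawn at a fitted value that depends on the pseudocount.

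Markers of cell types were read beside these results. In bulk samples, fewer cells of a type and less RNA per cell cannot be told apart. All 12 peritoneal macrophage markers were in the table, including *Gata6*, *Icam2* (CD102) and *Adgre1* (F4/80), and the summed count of the list was 36981 to 39131 in WT and 20070 to 22264 in Rxra-KO, most of it *Prg4*. Called lower (0.969% of all genes) were 6 genes, *Gata6*, *Icam2*, *Adgre1*, *Itgam*, *Prg4* and *Selp*, and 6 were not called. Among the latter, *Csf1r*, *Cd14*, *Mertk* and *Cd68* were higher in both Rxra-KO libraries than in both WT libraries, with log2 changes of 0.36, 0.59, 0.19 and 0.22. By contrast, *Timd4* and *Fcgr1* were lower in both Rxra-KO libraries than in both WT libraries, with log2 changes of -0.80 and -1.07. That of *Timd4* was -0.16 without Rxra-KO replicate 2. Of the 6 called genes, *Gata6*, *Adgre1* and *Prg4* lost the call without single libraries, *Gata6* at -1.31 in place of -2.32 without Rxra-KO replicate 1 (and with DESeq2), *Adgre1* without WT replicate 1 or Rxra-KO replicate 2, and *Prg4* without either WT library. Of 12 markers of SPMs and monocytes, 5 were called higher, namely *Ccr2*, *Mrc1*, *Fcrls*, *Cd209d* and *Clec4b1*, which the study named from these libraries as it did *Retnla* and *Irf4*, and 7 were not called. *Ccr2* had 50 and 23 reads in WT, against 249 and 659 in Rxra-KO. Normalised, its count was highest in Rxra-KO replicate 2 as for *Retnla*, whereas *Mrc1* was highest in Rxra-KO replicate 1 (1011, against 739 in replicate 2) and *Fcrls* was nearly level (1220 and 1231). The summed count of this list was 8981 to 10244 in WT and 8647 to 8785 in Rxra-KO, and most of it was *Fn1*. *Fn1* itself was at 9950 and 8776 in WT, against 5898 and 5939 in Rxra-KO, so the sum does not show the rise of the 5 called genes. *Fn1* was not called with limma (adjusted *p* = 0.140), but was called lower with edgeR (adjusted *p* = 0.0478) and DESeq2 (adjusted *p* = 0.00845). The defining monocyte genes *Ly6c2* and *Plac8* had 0 to 5 and 1 to 2 reads per library.

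Dendritic cells can express *Irf4*, *Mgl2*, *Clec10a* and *Pdcd1lg2*. Their 12 markers summed to 168 to 243 in WT and 160 to 221 in Rxra-KO, with *Cd209a* called higher (not without Rxra-KO replicate 2, at 1.81) and *Cd24a* called lower. *Cd24a* alone was at 84.03 and 133.97 in WT, against 18.82 and 21.35 in Rxra-KO. The sum therefore does not show how the other markers changed. Both Rxra-KO libraries lay above both WT libraries for 4 of the 12 markers (*Flt3*, *Cd209a*, *Kmo* and *Batf3*). They lay below both for 3 (*Cd24a*, *Clec9a* and *Itgae*). *Flt3* and *Zbtb46* had 1 to 6 and 1 to 10 reads per library. The 7 eosinophil markers in the table summed to 645 to 676 in WT and 280 to 312 in Rxra-KO. *Alox15* gave most of it in every library but Rxra-KO replicate 2, where it was 138 of 280, while *Epx* and *Prg3* had 1 to 6 and 0 to 1 reads and *Ccr3* had 0 reads in both WT libraries, against 3 and 3 in Rxra-KO. *Il5ra* had 59 and 70 reads in WT, against 43 and 76 in Rxra-KO, and *Adgre4* had 51 and 63 against 30 and 45. *Siglecf* had 8 and 11 reads against 6 and 14, and none of these was called. No marker of mast cells and basophils, B cells, T cells and innate lymphoid cells, neutrophils or mesothelial cells was called, against 2.29% of all genes. The part of other cell types in the levels of the members was not tested.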

How the data were processed

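RNA of sorted LPMs was sequenced by the authors from SMART-Seq v4 libraries. Per the methods, reads were quantified with kallisto 0.43.0 against a reference named as GRCh38, a human build, summarised to genes and scaled with TMM in limma. The deposited values are a normalised read signal, reads plus 0.5 divided by a scaled library size, and 100% of them gave whole reads within 0.001. They carry mouse symbols and no coordinates. Reads have no molecular identifiers, so limits from counts cover counting error only.

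Each gene was fitted with limma 3.58.1 (R 4.3.3, mean-variance trend) on log2(value + 1), which understates the change of low genes, using the 4 libraries and no covariates. The two-sided p-values were adjusted after Benjamini-Hochberg across all 18364 genes, and 0 genes were removed by a minimum value of 1 in 2 libraries. A single gene cannot go below p = 0.333 in an exact permutation test of 2 libraries against 2, so the calls rest on the spread shared across genes. Alternatives were other pseudocounts (0.1, 5), filters, voom, edgeR 4.0.16, DESeq2 1.42.0, a replicate block and leaving out each library. Older symbols were matched through RefSeq. Named were all members and, from the lists, genes that were called, most abundant among those not called, or absent, without naming every one. Some others were chosen after their values were seen, such as markers with few reads and relatives of members. The members and lists were chosen with earlier results of these data known, and some lists overlap.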

Additional observations from a re-analysis of the deposited data

How the results depend on the processing

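As reported, limma called 421 genes and 4 members. When the spread was fitted with no trend, limma called 0 genes and 0 members, with 1579 genes at an unadjusted p under 0.05, and DESeq2 called 235 genes and 2 members, *Retnla* and *Clec10a*. The cause was not tested. Leaving out 1 library gave 167 to 381 genes and 2 to 5 members, the fewest without Rxra-KO replicate 1, when *Arg1* and *Irf4* were lost. *Retnla* and *Clec10a* were called under every alternative but the fit without a trend (limma adjusted *p* = 0.356 and 0.337). Without 1 library, the log2 change of *Mgl2* lay between -0.13 and 1.40 and that of *Il13ra1* between -0.36 and 0.030 (without Rxra-KO replicate 2), so both changed sign. Replicate numbers come from the sample titles, and deviations of same-numbered libraries correlated at r = 0.06 across 8850 genes, so the libraries were taken to share only a number. With the replicate block 540 genes and 5 members were called, *Il4ra* being added (limma adjusted *p* = 0.0365). Pseudocounts changed no call among the members.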
